A study of Mus musculus with 43 samples.

Results

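Dense groups of CpG sites that were almost free of methylation in non-neoplastic colon epithelium were followed across the diets and into polyps. DNA methylation was measured by DREAM, an assay in which the sequence CCCGGG is cut first by SmaI, which methylation blocks, and then by XmaI, which it does not block, leaving methylated and unmethylated copies with different read ends. The sites lie on chromosomes 1 to 19 of the mm9 mouse genome. A site was taken when at least 3 other listed sites lay within 1000 bp of it, and when its mean adjusted methylation was under 10% in the epithelium of mice on 2 mg FA (2ND), over the samples with 20 or more reads there (at least 4 of 7). This gave 7274 member sites of 173449 listed ones, in 1916 clusters whose neighbouring members lay no more than 1000 bp apart. They were 92.1% of the 7900 dense sites with a 2ND value, and the other 626 dense sites stood at 10% or more. The members were thus selected on their adjusted methylation in the 2ND samples, and their low level there is a description with no test.

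All mice were female Swiss Webster mice given azoxymethane (AOM), a colon carcinogen, and 4 cycles of dextran sulfate sodium (DSS), which inflames the colon, and were killed at 27 weeks of age. After the first DSS cycle they received chow with 0, 2 or 8 mg/kg folic acid (FA) for 16 weeks, and colon cells were cut by laser from fixed, embedded tissue. The first cohort held non-neoplastic epithelium on 0 mg (0ND, n = 5), 2 mg (2ND, n = 7) and 8 mg FA (8ND, n = 6). The second cohort held epithelium and polyps on 0 mg (0ND, n = 6 and 0P, n = 6) and on 8 mg FA (8ND, n = 6 and 8P, n = 7), and each polyp had an epithelium sample from the same mouse. Mouse 1856 gave 2 of the 8P lesions, and 8 mice had epithelium in both cohorts. There were no mice without AOM and DSS among the 43 samples. The labels call the non-neoplastic samples of both cohorts epithelial cells, whereas the text of the study also describes material that held the lamina propria, the connective tissue under the epithelium. The epithelium set beside the polyps may therefore hold lamina propria cells, and their part in the differences was not tested. The file names of the 2 lesions of mouse 1856 are crossed against their labels, so that which lesion holds which value is uncertain, which touches no group value.

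In most mammalian tissues CpGs are methylated, while the dense CpG stretches called CpG islands, many of them at gene promoters, are kept free of methylation. In tumours part of the islands gains methylation while the rest of the genome loses it. Folate supplies the methyl groups from which S-adenosylmethionine, the donor for DNA methyltransferases, is made, which is why the dose of FA bears on this mark. Whether the member sites lie in annotated islands or in named genes was not analysed here, since the genome at hand was of another build than mm9, and sites are therefore named by their mm9 position.

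The members were close to 0 in 2ND. Their 2ND mean was exactly 0 at 3620 sites and under 1% at 6319 (86.9%), while 777 stood between 1% and 5% and 178 between 5% and 10%. Just inside the limit lay chr10:126516443 at 9.873%, chr5:90312922 at 9.88% and chr2:167423162 at 9.974%, and just outside lay chr10:72562438 at 10.03%, chr15:100994011 at 10.14% and chr11:11015849 at 10.15%. Neighbouring members of a cluster were 149 bp apart at the median, and clusters of 2 or more members spanned 501 bp at the median. The largest cluster held 14 members, and 163 members stood alone, with no further member within 1000 bp. Members made up 3.13% of listed sites on chromosome 18 and 6.32% on chromosome 11, the lowest and the highest share. Close neighbours can be both ends of 1 DNA fragment, so members of a cluster are not independent measurements. A level is a share of DNA copies, and a few highly methylated cells cannot be told apart from a low level in all cells.

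Reads on sites ran from 1488920 to 16923453 per sample, and the median member had 94 to 1062 reads, so that 0 methylated reads at such a site allow a raw level of up to 3.19% at the lower and 0.282% at the higher depth. Several samples stood apart. In 6 second-cohort epithelium samples, 3 each from 0ND and 8ND, the 100 most-read sites took 8.76% to 10.2% of the reads, against at most 6.29% elsewhere. The 8ND sample of mouse 1856 and the 0P sample of mouse 1839 had member levels far above their groups, and the 8ND sample of mouse 1830 had the fewest reads per member of the second cohort (median 102). The main counts are given with and without these samples where leaving one out moved them.

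The question for the second cohort was whether these unmethylated sites gained methylation in polyps, and whether the diet mattered. Over the 3409 members with 20 or more reads in all 25 samples of the cohort, the mean level had its median at 0.309% among the 0ND samples (range 0.232% to 0.374%), and at 0.475% among the 0P samples (range 0.374% to 0.774%). For 8 mg FA, the 8ND samples had a median of 0.284% (range 0.181% to 0.76%), and the 8P samples one of 0.562% (range 0.415% to 0.614%). Polyps thus stood higher on both diets, with 0.509% ± 0.136 in 0P (SD, n = 6) against 0.308% ± 0.0453 in 0ND (n = 6), and 0.547% ± 0.0651 in 8P (n = 7) against 0.337% ± 0.214 in 8ND (n = 6). No test was run on these means. Depth differed between the groups, with a median of 280 reads per member in 0ND, 245 in 0P, 148 in 8ND and 694 in 8P. Members with no methylated read made up 87.8% on average in 0ND, 90.4% in 0P, 92.1% in 8ND and 72.7% in 8P. On 0 mg FA this share was thus higher in polyps, as was the mean level. The part of depth in these and the later comparisons, above all those with 8P, was not tested.

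Of the 6 0P samples 5 lay above every 0ND sample, whereas no 8P sample lay above the highest 8ND sample, that of mouse 1856 at 0.76%. Without it, 8ND was 0.253% ± 0.0601 (n = 5) with a highest value of 0.313%, and all 7 8P samples lay above that. Without mouse 1839, 0P was 0.456% ± 0.0473. Within mice, 11 of 13 lesions had a higher member mean than the epithelium of their own mouse, both with adjusted and with raw percentages, and the exceptions were both lesions of mouse 1856. The largest rise within a mouse was 0.463 points, from 0.31% to 0.774% in mouse 1839, and the smallest 0.0665 points, from 0.307% to 0.374% in mouse 1820. The 2 polyp groups overlapped, and their order depended on the spike-in adjustment: the raw mean was 0.49% in 0P and 0.438% in 8P.

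**Figure D1:**
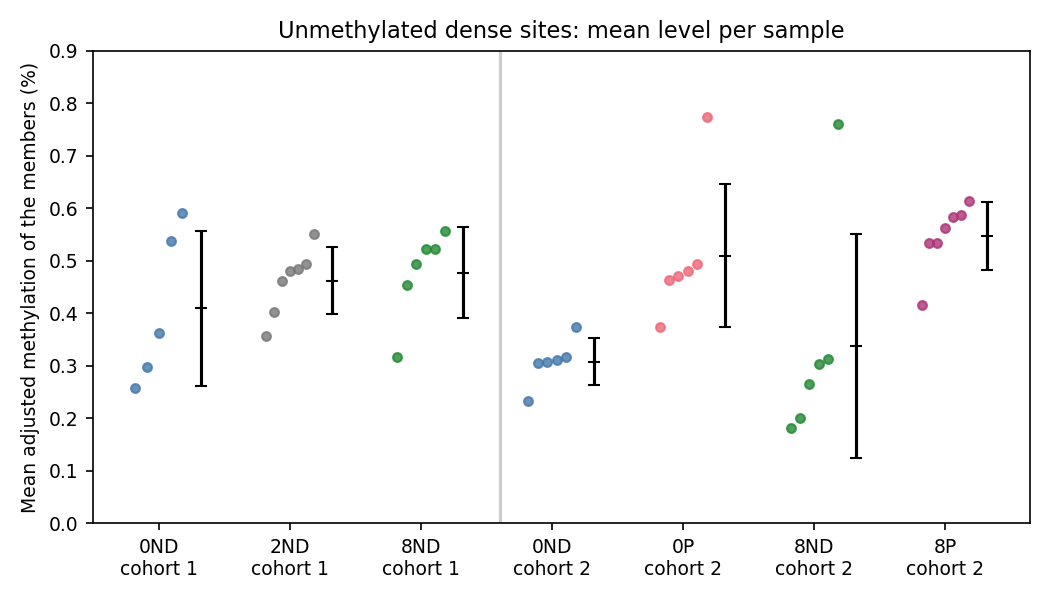
Mean adjusted methylation of the members (%) in each of the 43 samples, by group, with the mean and SD of the group beside the points. The first cohort is averaged over 5237 members and the second over 3409, so that levels compare within a cohort. In the second cohort 12 of 13 polyps lie above 11 of the 12 epithelium samples, and the 8ND sample of mouse 1856 lies at 0.76%.

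A spiked DNA standard also had the higher group mean in polyps on both diets. The standard with the lowest reading gave 3.62% ± 0.37 in 0P and 3.12% ± 0.416 in 0ND, and 3.59% ± 0.414 in 8P and 2.74% ± 1.21 in 8ND, on the adjusted scale. Its highest values in 8ND and in 0P, 4.61% and 4.21%, were those of the same mice 1856 and 1839. In 0ND and 8P the order was the reverse. The samples with the highest member mean there, of mice 1805 (0.374%) and 1841 (0.614%), had the lowest values of the standard, 2.58% and 3.03%. The member mean lay under this standard in all 43 samples, and the part of this reading in the difference between polyps and epithelium was not tested. Over all 8232 sites, by contrast, polyps differed from epithelium by -0.986 points on average over both diets (median 0.0164). The members differed by 0.206 points (median 0.0407). The 2960 sites under 10% in 2ND with fewer than 3 others nearby differed by 0.245 points (median 0.0321), so that the rise was not particular to dense sites. At the 167 dense sites at 10% or more in 2ND the mean was -2.43 points. Among the members and all sites, the signs were counted as well. The difference was above 0 at 2123 members (62.3%) and below 0 at 784 (23.0%), against 53.4% and 34.2% of all sites.

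The difference followed the level that a member had in 2ND, whose samples enter no comparison of the second cohort. Members at exactly 0 in 2ND (1423 sites) had 0.126% ± 0.0201 in 0P against 0.0669% ± 0.0301 in 0ND, and 0.124% ± 0.0281 in 8P against 0.0765% ± 0.0579 in 8ND. At members above 0 and under 1% (1620 sites) the means were 0.285% ± 0.0803 in 0P and 0.156% ± 0.0409 in 0ND, and 0.293% ± 0.0388 in 8P and 0.176% ± 0.147 in 8ND. Between 1% and 5% (302 sites) 0P had 2.26% ± 1.02 and 0ND 1.23% ± 0.195, and 8P had 2.38% ± 0.337 and 8ND 1.48% ± 0.885. In points the differences grew with the 2ND level. As a ratio of means, 0P stood at 1.88, 1.83 and 1.83 times 0ND in these 3 classes, and 8P at 1.62, 1.66 and 1.61 times 8ND. Without the 8ND sample of mouse 1856, 8ND was 0.0548% ± 0.0259, 0.117% ± 0.0333 and 1.15% ± 0.393, and the ratios were 2.26, 2.49 and 2.08.

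The 64 members at 5% to 10% in 2ND differed most in points. They had 6.46% ± 0.987 in 0P against 5.16% ± 0.939 in 0ND, a ratio of 1.25, and 7.72% ± 1.21 in 8P against 4.83% ± 2.6 in 8ND, a ratio of 1.6. Without the 8ND sample of mouse 1856, 8ND was 3.85% ± 1.13 at these sites and the ratio was 2. The groups overlapped in each of the 4 classes, except that with mouse 1856 left out all 8P samples lay above 8ND at 2ND levels from above 0 to under 5%.

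**Figure D2:**
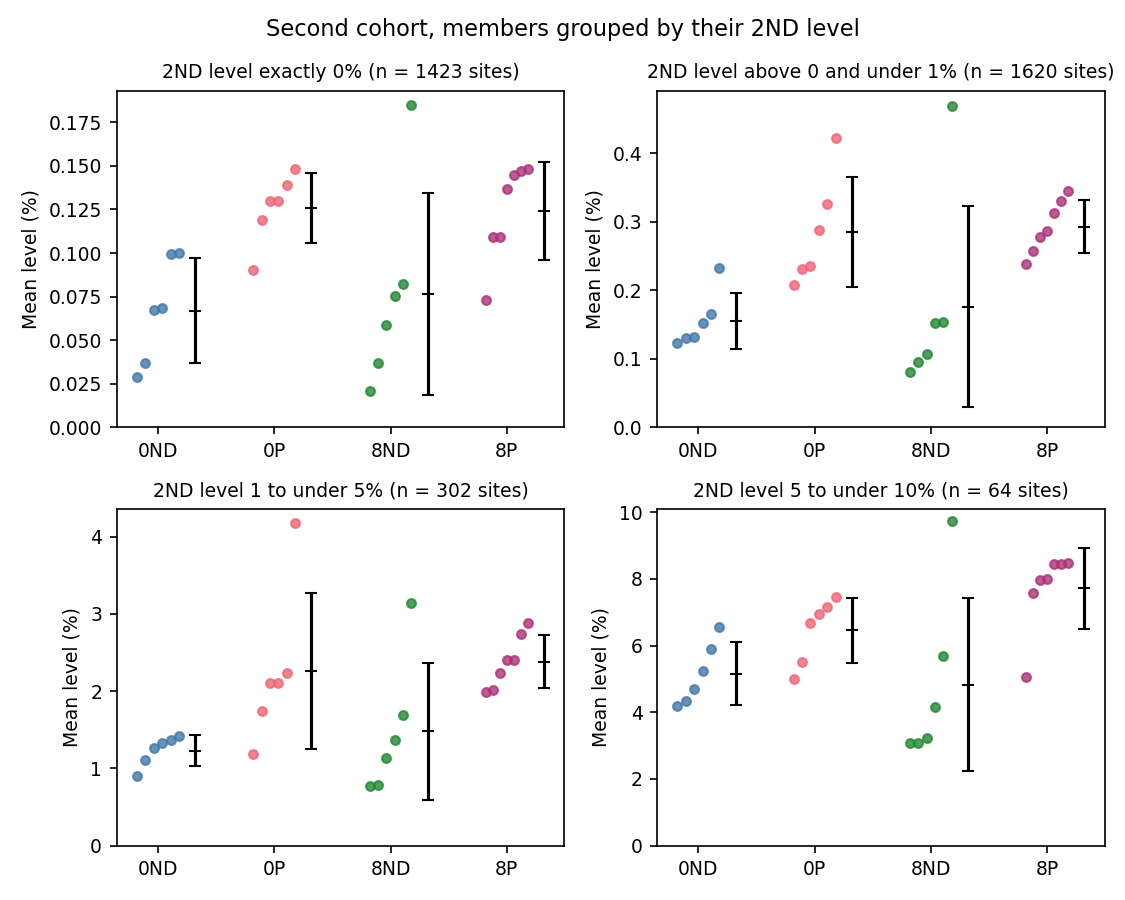
Mean adjusted methylation (%) of the members in each sample of the second cohort, in 4 panels by the 2ND level of the members, with group mean and SD. Axes differ between panels and start at 0. Polyp groups have the higher mean in each panel, and 1 sample of 8ND, from mouse 1856, lies above the other 5 in each.

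Single sites were tested over both diets with limma, a linear model whose variances are moderated across all sites, and called at a Benjamini-Hochberg adjusted p under 0.05 and a difference over 5 percentage points. No member was called higher, against 14 of all 8232 sites (0.170%), and no member was called lower, against 134 sites (1.63%). At an unadjusted p under 0.05 with the same difference, 17 of 3409 members (0.499%) were higher, against 1.37% of all sites, and 0 were lower, against 6.61%. With the unadjusted p alone, 89 of the 3409 members were higher and 6 lower. Counts by p alone were taken for members only, here and below. With no share of all sites beside them, they cannot show an excess among members. At the 5-point criterion the members' share of gains was under that of all sites. Since most members stood under 5% to begin with, few of them could fall by more than 5 points.

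When each sample was centred on its own mean over all sites, limma called 29 members higher and 0 lower, and 152 sites higher and 411 lower in all. That mean was lower in polyps, at 12.1% in 0P against 13.6% in 0ND and 12.4% in 8P against 13% in 8ND. Centring thus raises every member in polyps by the difference of these means, and the 29 calls are no count of gains in level. The quasi-binomial logistic model of the read counts called 1 member higher at the adjusted p. Without the 8ND sample of mouse 1856 the adjusted p called 3 members and the unadjusted p 21, and without the 0P sample of mouse 1805 the adjusted p also called 3. Where only samples with under 8% of reads on their 100 most-read sites were kept, which tests 4728 members, 3 were higher and 1 lower at the unadjusted p.

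The 17 members lay in 15 clusters, and their differences ran from 5.28 to 13.1 points with adjusted p-values of 0.0532 to 0.468 (limma). Their 2ND levels ran from 1.83% to 9.85%, and 11 of them stood at 5% or more, out of 64 such members tested. The remaining 6 were among the 302 members between 1% and 5%, and no member under 1% was among them.

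Site chr5:122660227 had the smallest adjusted p of the 17. In 0ND its level reached from 0 to 4.02% with a median of 2.76%, while 0P reached from 0 to 15.8% with a median of 5.72%. In 8ND it reached from 0 to 5.93% with a median of 1.53%, while 8P lay between 4.25% and 16.9% with a median of 10.8%. The groups overlapped on both diets, and the difference over both was 6.55 points (SE 1.72, limma, unadjusted p = 0.00101, adjusted p = 0.0532). The next was chr11:50416124, where both epithelium groups had a median of 0, with highest values of 1.89% in 0ND and 4.61% in 8ND. The 0P samples held 0 to 14.1% there with a median of 7.79%, and the 8P samples 1.74% to 11.4% with a median of 3.52%. Only mouse 1839 in 0ND and mouse 1856 in 8ND exceeded 1.43% among the second-cohort epithelium samples. In the first cohort, epithelium reached higher at this site, up to 7.5% in 0ND (median 1.2%), 5.93% in 2ND (median 3.05%) and 7.2% in 8ND (median 3.29%). The difference over both diets was 5.59 points (SE 1.48, limma, adjusted p = 0.0546). Both sites were chosen after their values were seen, since the rule for naming sites over both diets found none.

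Within each diet, the thresholds of the study were used, p under 0.05 and a difference over 5 points. The p was not adjusted, and the equal variances, the two-sided test and the minimum of 20 reads were choices made here. On 8 mg FA, 19 of 4000 members (0.475%) were higher in 8P than in 8ND, against 1.63% of all 9969 sites. None was lower, against 3.50% of sites, and limma of the same groups also gave 19 and 0. The quasi-binomial model gave 10 higher and 3 lower, and no member was past a Benjamini-Hochberg adjusted p of 0.05. Disregarding the size of the difference, 141 of the 4000 members had an unadjusted p under 0.05 in the higher and 0 in the lower direction. The 19 sites lay in 19 different clusters, differed by 5.05 to 12.7 points, and had 2ND levels of 1.12% to 9.74%.

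At 8 of these 19 sites the highest 8ND sample was that of mouse 1856. Without that sample 26 members were higher, without the 8ND sample of mouse 1858 12 were, and without that of mouse 1830 14 were. With only the samples under 8% of reads on 100 sites, 9 of 5726 members were higher and 1 lower. Of the 19, 14 were also measured in all 0ND and 0P samples, which come from other mice. There the 0P mean was above the 0ND mean at 12 of 14, with a median difference of 5.27 points, and none was called.

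At 2 of the 19 sites 8P and 8ND did not overlap. That is 2 of the 4000 members tested, a smaller share than the 12 of all 9969 sites (0.120%). The first, chr16:35156214, had 9 other sites within 1000 bp. The 8ND samples lay at 0 to 5.22% with a median of 0.855%, the 8P samples at 5.46% to 22.4% with a median of 9.05%, with 29 to 152 reads per 8ND sample. The difference was 10.74 points (SE 3.12, adjusted p = 0.309), and no exact test is given, since the site was picked for groups that do not overlap. A count of 0 at 29 reads allows a raw level of up to 10.3%, which is above the lowest 8P value. On 0 mg FA the site was at 0 to 20.4% in 0ND and 0 to 19.2% in 0P, and the groups overlapped throughout. First-cohort epithelium overlapped with 8P here, at 3.66% to 16.9% in 0ND, 0 to 29.4% in 2ND and 0 to 10.2% in 8ND.

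The second, chr14:109311560, was at 0 in all 6 8ND samples, with 75 to 258 reads each, and at 1.11% to 19.7% in 8P (median 8.94%). The 8P mean exceeded that of 8ND by 9.01 points (SE 2.30, adjusted p = 0.226), with no exact test for the same reason. A count of 0 at 75 reads allows a raw level of up to 4%, so that the lowest 8P sample is not set apart from the shallowest 8ND sample by counting error alone. On 0 mg FA it was at 0 to 20.4% in 0ND and 0 to 49.5% in 0P, a difference of 11.60 points (exact permutation p = 0.197). First-cohort epithelium again overlapped with 8P, at 0 to 10.2% in 0ND, 0 to 9.22% in 2ND and 0 to 10.8% in 8ND.

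On 0 mg FA, 5 of 4328 members (0.116%) were higher in 0P than in 0ND, against 0.576% of all 11109 sites, and 2 were lower (0.0462%), against 4.79%. Limma of the same groups gave the same counts, the quasi-binomial model gave 16 higher and 2 lower, and the adjusted p gave none. With an unadjusted p under 0.05 alone, 7 members were higher and 25 lower. After centring of each sample, which shifts every member by the difference of the means over all sites, 20 were higher and 2 lower. The count of 5 hung on single samples. It was 10 without the 0P sample of mouse 1805 or 1820 and 9 without that of mouse 1808. It was 3 without the 0P sample of mouse 1809, or without the 0ND sample of mouse 1807, 1808, 1820 or 1839. The count of 2 lower became 4 without the 0P sample of mouse 1820 or the 0ND sample of mouse 1807 or 1808. None of the 5 had groups that did not overlap, which is 0.00% of the 4328 members tested, against 0.117% of all sites.

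The 5 gains are named here because they are few, after their values were seen. The largest was at chr2:12931609, where 0ND held 0 to 9.35% with a median of 3.99%, and 0P held 1.34% to 47.5% with a median of 19.8%. The polyps of mice 1805 and 1807 had 41.7% and 47.5%, while those of mice 1808 and 1820, at 1.34% and 7.23%, lay inside the range of 0ND. This was a difference of 18.48 points (SE 7.81, exact permutation p = 0.0411, adjusted p = 0.765). On 8 mg FA this site was at 0 to 13.9% in 8ND and 1.35% to 38.2% in 8P, a difference of 7.71 points (exact permutation p = 0.161).

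The others were chr7:86660424 (9.78 points), chr11:50416124 (6.83 points), chr18:64425266 (6.32 points) and chr5:114724636 (6.17 points). Their exact permutation p-values were 0.0195, 0.0281, 0.00866 and 0.0606 before adjustment, so that the last one missed 0.05 in the exact test. The sites had been called on the same values, so that the exact test is no separate check. Adjusted p-values of the two-group test were 0.555, 0.502, 0.505 and 0.818. At all 5 the 8P mean was above the 8ND mean too, and none of them was called on 8 mg FA. Of these, chr11:50416124 missed the call there by the 5-point criterion alone, with 4.35 points (two-group test, unadjusted p = 0.0385, adjusted p = 0.59).

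The 2 members lower in 0P lay at chr3:96440137 and chr10:80290933. The first was at 0 to 28.6% in 0ND (median 10.4%), with only 26 to 65 reads per sample, and at 0 in all 6 0P samples, where 55 reads or more allow up to 5.45% (difference -11.90 points, SE 4.56, exact permutation p = 0.0152, adjusted p = 0.614). The second had a median of 11.4% in 0ND, with values of 0 to 25.1%, and of 1.86% in 0P, with values of 0 to 5.58%, a difference of -9.87 points (SE 3.40, exact permutation p = 0.0152, adjusted p = 0.489). In the 0ND samples of the first cohort these sites were at 0 to 4.76% and at 4.22% to 13.8%. No member was lower once 50 reads were asked for in every sample.

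**Figure D3:**
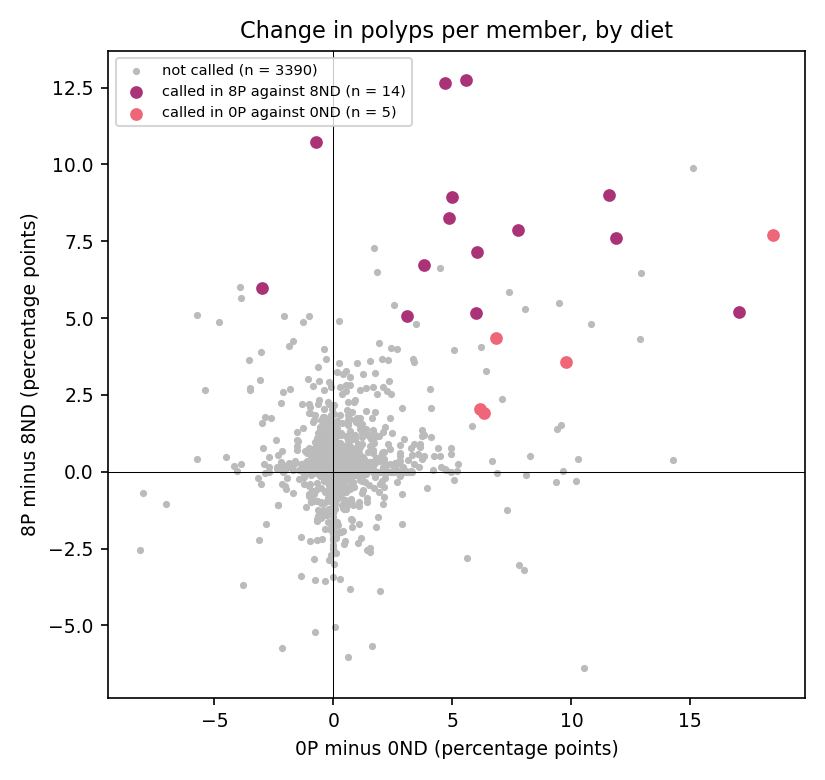
Difference between polyps and epithelium in percentage points at each of 3409 members, on 0 mg FA (x axis) and on 8 mg FA (y axis), with the members called on either diet in colour. No member was called on both diets, and 13 members lie above 5 points on both axes.

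The mice of the 2 diets differ, so that the contrasts of the diets could be set side by side. Of the 3409 members 647 were higher in polyps on both diets, 158 lower on both, 180 higher on 0 mg and lower on 8 mg, and 577 the reverse, and 1847 showed no difference on at least 1 diet. Differences above 5 points were seen at 43 members on 0 mg FA, at 30 on 8 mg FA and at 13 on both. Differences below -5 points were seen at 6 members on 0 mg FA and at 6 on 8 mg FA. The correlation across members was 0.31 by Pearson's r and 0.03 by Spearman's rho over 3409 sites, which share libraries and fragments. The 50 members with the largest difference (1.47%) had differences that came to 43.2% of the net sum over both diets, in which members lower in polyps count as negative. They were picked as the largest values of the same data, so that a high share was in part fixed beforehand.

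Whether the change in polyps depended on the diet was tested as a difference of differences. Limma called no member with a larger and none with a smaller change on 8 mg FA at the adjusted p, where 0.00% of all sites were called in the higher and 0.00% in the lower direction. The smallest adjusted p of a member was 0.632. Unadjusted, the change was larger on 8 mg FA at 8 members (0.235%), against 1.77% of all sites, by 5.96 to 9.97 points, and 74 had an unadjusted p under 0.05 in that direction at any size. It was smaller at 1 member (0.0293%), against 0.352%, which was chr2:106533990 at -10.84 points (SE 4.96, limma, unadjusted p = 0.0402, adjusted p = 0.727). This site was singled out after its values were seen. Its 0P samples held 0, 0, 0, 11.3%, 20.6% and 22.7%, and its 8ND sample of mouse 1856 had 17.4% where the other 8ND samples had at most 2.14%. The 6 epithelium samples with concentrated reads had 2735 to 4492 reads at this site, against 71 to 911 in the other samples of the cohort. The quasi-binomial model called no member at the adjusted p and 10 at the unadjusted p.

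Polyps of the 2 diets were also compared directly. In 8P, 12 of 4989 members (0.241%) were higher than in 0P, against 1.68% of 13772 sites, by 5.21 to 12.6 points, and 1 (0.0200%) was lower, against 0.879%. None of the 12 was among the 19 members higher in 8P than in 8ND. Several of the 12, such as chr2:74542880, lacked 20 reads in an 8ND sample, so that they were not tested there and could not be among the 19. The lower site, chr15:78549732, held 0 to 18.1% in the 0P samples with a median of 4.83%, and 0 to 2.63% in the 8P samples with 4 of 7 at 0, a difference of -5.89 points (SE 2.63, exact permutation p = 0.035, adjusted p = 0.721), and is named after its value was seen. With an unadjusted p under 0.05 alone, 111 members were higher and 1 lower. With raw percentages 6 members were called in place of 13, without the 8P sample of mouse 1848 8 were, and none was past an adjusted p of 0.05.

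Neighbours of the sites with gains were measured as well. Of the 17 members higher over both diets at the unadjusted p, 13 had at least 1 further member of their cluster in the test. The 11 such neighbours that were not called themselves differed by -1.7 to 3.32 points (median 0.648), and 7 of the 11 stood higher in polyps. Members at the first or last place of a cluster of 3 or more differed by 0.247 points on average (8 of 1042 called, 0.768%), and inner members by 0.172 points (5 of 2121, 0.236%). The former also had the higher 2ND level, 0.473% against 0.332%. Members under 500 bp from a dense site at 10% or more had 3.55% in 2ND, and 5 of 83 were called (6.02%). The 3286 members over 1000 bp away had 0.355%, and 11 were called (0.335%). By density, 11 of 1395 members with 3 other sites nearby were called, 5 of 1418 with 4 or 5, and 1 of 596 with 6 or more. These counts are a description, since level in 2ND, place and density go together.

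In 2 clusters, chosen after their values were seen, 2 members each were among the 17. The cluster at chr14:109311177-109311565 has 3 members, 2 of them covered in all samples. The mean of these 2 had a median of 1.77% in 0ND, with values of 0 to 11.6%, and of 7.58% in 0P, with values of 4.46% to 47.7%, and with the polyps of mice 1809 and 1839 at 47.7% and 28.4%. On 8 mg FA, 4 of 6 8ND samples were at 0 and the highest at 7.43%, and the 8P samples lay between 5.3% and 20.2% with a median of 10.9%. Every 8P sample except that of mouse 1830, at 5.3%, and the lesion of mouse 1858, at 6.22%, lay above the highest 8ND sample, while 0P and 0ND overlapped. The remaining member, at the start of the cluster, stood at 10.3% ± 10.7 in 0ND (n = 5) and 5.24% ± 8.81 in 0P (n = 6), and did not share this order. On 8 mg FA it stood at 6.79% ± 6.05 in 8ND (n = 3) and 11.6% ± 8.42 in 8P (n = 7), higher in polyps but within the spread.

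The cluster at chr4:66064714-66065323 has 4 members, again 2 of them covered throughout. Their mean was 0 to 2.46% in 0ND and 0 to 2.42% in 8ND of the second cohort. First-cohort epithelium was higher at the first of these members, chr4:66064714, with 4.77% ± 2.26 in 0ND (n = 5), 3.81% ± 3.73 in 2ND (n = 7) and 6.2% ± 3.76 in 8ND (n = 5), beside 7.06% ± 9.88 in 8P (n = 7). In 0P it was 29.2%, 23% and 14.2% in the polyps of mice 1807, 1809 and 1839, and 0 in the other 3, where 104 to 168 reads allow up to 2.88% at the lowest depth. In 8P it ran from 0 to 23.9% (median 4.39%), and the lesions of mice 1848, 1841 and 1858 were highest, at 23.9%, 8.78% and 6.71%. The 2 lesions of mouse 1856 were at 0 and 3.55%. Methylation here was found in part of the lesions of each diet, and the polyps overlapped with the epithelium. The remaining members were not covered in every sample and showed no common order. At chr4:66065045 the means were 0.472% in 0ND (n = 6), 4.02% in 0P (n = 5), 5.92% in 8ND (n = 4) and 7.73% in 8P (n = 7). At chr4:66065318 they were 0.484% in 0ND (n = 5), 9.14% in 0P (n = 4), 2.44% in 8ND (n = 3) and 1.77% in 8P (n = 7).

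**Figure D4:**
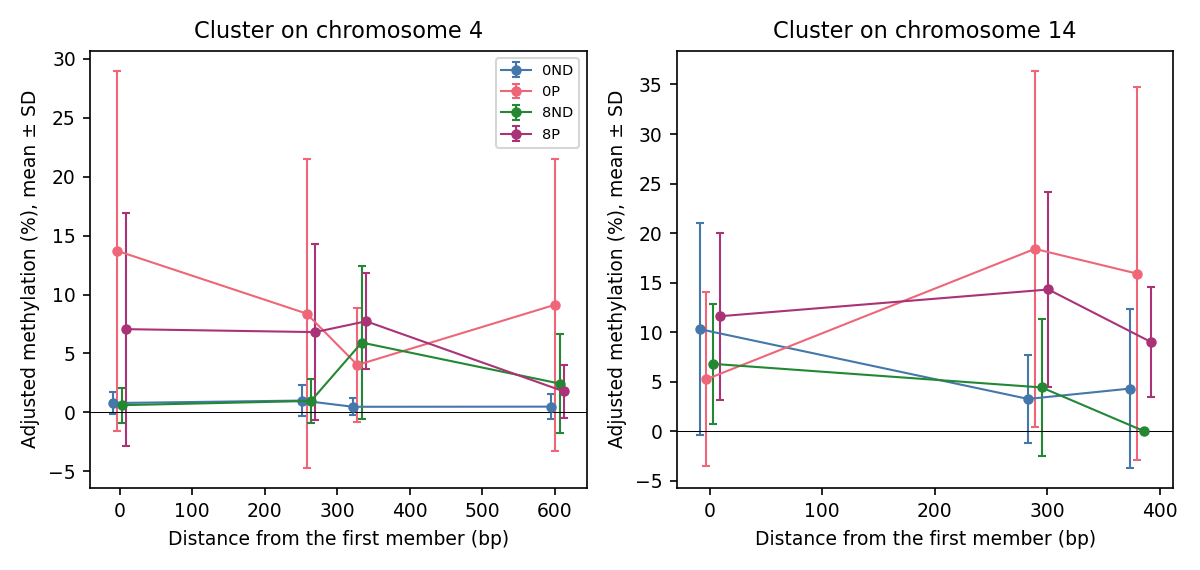
Adjusted methylation (%) of each member of 2 clusters against its distance from the first member (bp), as mean and SD over the samples of each second-cohort group with 20 or more reads (3 to 7 samples per point). Points of the groups are shifted by a few bp to keep them apart. In both clusters the polyp means exceed the epithelium means at the members covered in all samples, and the SD of 0P is about as large as its mean.

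The lesions differed in how many members and clusters were raised. Among members with 50 or more reads, 53 of 6019 stood at 20% or more in the polyp of mouse 1839, 42 of 4572 in that of mouse 1805 and 26 of 6126 in that of mouse 1807, and 5 to 17 in the other 0P samples. In 0ND the count was 0 to 15 (median 4), in 8P 5 to 18 (median 12) and in 8ND 0 to 33 (median 8), the highest being mouse 1856. The polyps of mice 1839 and 1805 differed in what surrounded those sites. In mouse 1839 the other members of their clusters had a mean of 8.58%, against 1.5% at the same members in the second-cohort epithelium, and 28 of 52 raised members had a neighbour at 10% or more. In mouse 1805 the neighbours had 1.52%, against 0.854%, and only 3 of 32 raised members had a neighbour at 10% or more. In that sample 97.9% of the members had no methylated read, the highest share of any 0P sample, and the median member had 139 reads, the fewest of any 0P sample.

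Counted by cluster, with at least 3 members at 20 or more reads, 0P samples had 2 to 22 clusters with a mean of 10% or more (median 10.5) among 1102 to 1411 measured, and 0ND samples had 0 to 5 (median 1) among 1063 to 1310. In 8P there were 3 to 7 (median 6) and in 8ND 0 to 13 (median 4). The 8ND samples with 12 and 13 such clusters were those of mice 1830 and 1856, and the former had the fewest reads per member of the cohort. The other 4 8ND samples had 0, 0, 2 and 6 such clusters. Of the first cohort, 0ND had 0 to 5, 2ND 0 to 3 and 8ND 0 to 9. The groups overlapped, although 4 of the 6 0P samples lay above all 0ND samples.

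**Figure D5:**
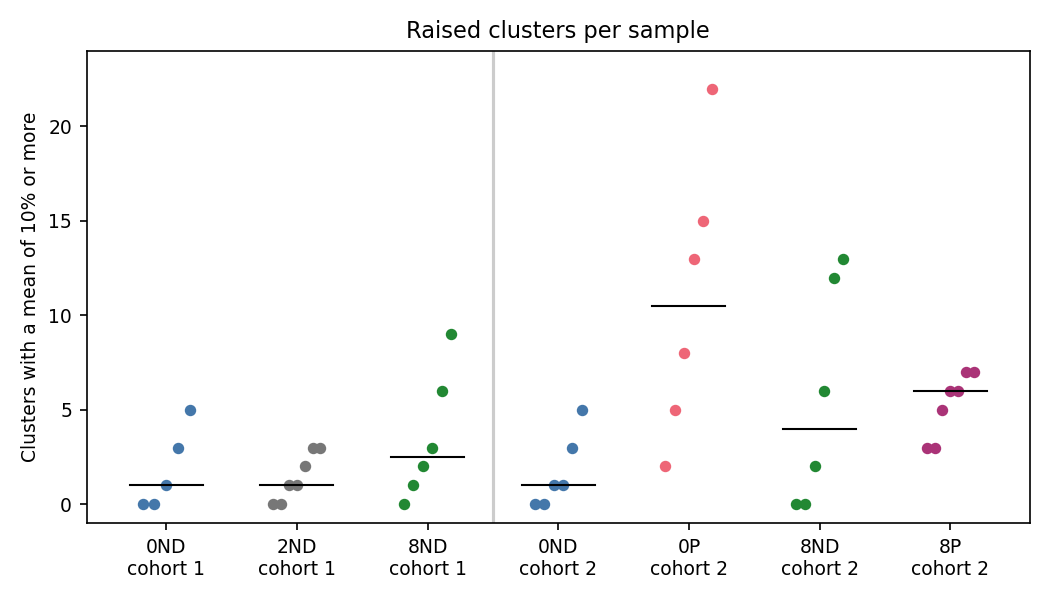
Number of clusters with a mean level of 10% or more in each sample (clusters with at least 3 members at 20 or more reads), by group, with the median as a line. 0P samples reach 22 clusters and 0ND samples at most 5, while the range of 8P (3 to 7) lies inside that of 8ND (0 to 13).

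In the non-neoplastic epithelium the diets were compared in both cohorts. Over the 5237 members covered in all 18 samples of the first cohort, the median of the sample means was 0.363% for 0ND (range 0.257% to 0.59%), 0.481% for 2ND (range 0.356% to 0.55%) and 0.508% for 8ND (range 0.316% to 0.556%). The groups overlapped, and the 2ND values are given only as a description. Between 8ND and 0ND of this cohort 5 of 5273 members (0.0948%) were higher, against 0.594% of 13475 sites, and 3 (0.0569%) were lower, against 3.82%, by the two-sided test with equal variances at an unadjusted p under 0.05. No member passed the adjusted p, limma and the quasi-binomial model each called 9 in all, and with an unadjusted p under 0.05 alone 26 were higher and 20 lower. With raw percentages 1 member was called in place of 8, and without the 0ND sample of mouse 1809 5 were.

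The member with the largest difference was chr15:98000966, which was lower in 8ND. It had 10.4%, 15.4%, 21%, 9.97% and 2.8% in the 5 0ND samples, and 4.5% in 1 8ND sample and 0 in the other 5 (difference -11.15 points, SE 2.86, exact permutation p = 0.00866, adjusted p = 0.408). Only the 0ND sample at 2.8% lay below the highest 8ND sample. In the second cohort, which shares 8 mice with the first, 8ND stood -6.63 points from 0ND (exact permutation p = 0.0758). The other member named by the rule as lower was chr2:31309938, with a median of 12.2% among 0ND samples (7.94% to 17.5%) and 5.71% among 8ND samples (2.16% to 9.61%), a difference of -6.56 points (SE 1.84, exact permutation p = 0.00866, adjusted p = 0.493). Higher in 8ND were chr15:83610530 (8.55 points, SE 3.29, exact permutation p = 0.0909, adjusted p = 0.771) and chr8:14095702 (7.10 points, SE 2.61, exact permutation p = 0.0216, adjusted p = 0.716). At chr15:83610530 4 of 6 8ND samples were at 11.3% to 15.7% and 2 at 0, with as few as 28 reads, and the 0ND samples were at 0 apart from 1 at 2.79%. The 0ND values of 0 rested on as few as 20 reads, where a count of 0 allows a raw level of up to 15%. The remaining calls, listed after their values were seen, were chr14:112074653 (6.17 points), chr3:94167563 (5.94 points), chr10:126516635 (5.26 points) and chr2:152857584 (-5.14 points).

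In the second cohort 0 of 3920 members were higher in 8ND than in 0ND, against 0.145% of 9666 sites, and 2 (0.0510%) were lower, against 1.31%, by the same test. With an unadjusted p under 0.05 alone, 2 were higher and 13 lower, limma gave 2 calls and the quasi-binomial model 3, and the adjusted p none. The count of 2 was 4 without the 0ND sample of mouse 1805 or the 8ND sample of mouse 1841 or 1856, 1 without the 0ND sample of mouse 1808 and 0 without that of mouse 1820. The sites were chr4:118782657, where 0ND held 0.88% to 12.1% with a median of 6.03% and 8ND at most 1.97%, and chr17:51952316, where 0ND held 0 to 13.7% with a median of 3.99% and 8ND at most 1.36%. Their differences were -5.68 points (SE 1.99, exact permutation p = 0.00866, adjusted p = 0.989) and -5.16 points (SE 2.03, exact permutation p = 0.0152, adjusted p = 0.989), and both are named after their values were seen. In the first cohort they differed in the other direction, by 2.27 and 1.23 points. Of the 8 members called in the first cohort 6 were tested in the second, 4 of them with the same direction, and none was called in both.

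The same counts were taken at other sites. Among sites under 10% in 2ND with fewer than 3 others nearby, 26 of 3538 (0.735%) were higher in 8P and 10 of 3978 (0.251%) in 0P. Among dense sites at 10% or more in 2ND, 11 of 206 (5.34%) were higher in 8P and 5 of 260 (1.92%) in 0P. The latter were also lower at 22 (10.7%) and 27 (10.4%) sites. The differences between these shares were not tested, because sites of 1 cluster share fragments and libraries.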

How the data were processed

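DREAM libraries of 43 samples were sequenced by the authors, who aligned reads with Bowtie2 and SAMtools (versions not given in the sources used here). The files name mm9, and the methods of the study name the human genome. The deposited tables give, per CCCGGG site, read counts for both methylation states, their raw percent, and an adjusted percent, which the authors corrected with spiked standards and which amounts to 1 odds factor per sample. Adjusted percentages were used at sites with 20 or more reads. Reads on sites numbered 1488920 to 16923453 per sample, and limits from a count of 0 (3 counts) cover counting error only.

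Members and lists were chosen with earlier results of these data known. Differences were tested with limma 3.58.1 (R 4.3.3, 4 group means) across all sites with 20 or more reads in every sample, and between pairs of groups with a two-sided equal-variance test at the thresholds of the study, whose methods state neither variances, sidedness nor a read minimum. Named sites were retested with an exact two-sided permutation test (scipy 1.17.1), added after seeing the data and not reported where sites were picked for groups that do not overlap. The pipeline was tested on simulated data. Sites named were, by rule, the 12 largest calls over both diets, up to 4 gains without overlap and 3 losses per diet, and 4 calls of 8ND against 0ND in the first cohort. Outside the rule, the sites of any count of 5 or fewer were named after their values were seen. Samples were taken as separate mice, except the 2 lesions of mouse 1856, which were also averaged. Epithelium and polyps pair by mouse: deviations from group means correlated at -0.08 to 0.24 (median 0.05) over 13 same-mouse pairs and at -0.19 to 0.12 over 65 other pairs. Alternatives were coverage minimums of 10 and 50 reads, incomplete coverage, raw percent, centring, a difference over 10 points, a quasi-binomial model, stricter member rules, a mouse block and leaving out samples.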

Additional observations from a re-analysis of the deposited data

Results flagged for a closer look

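Of 98 groups of 4 to 10 samples examined, 25 held a sample set far apart from the others by Dixon's test, which chance does in about 1 group in 20. Groups with many values at 0 are marked by any single value above 0.

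For the mean level of the members, the 0P sample of mouse 1839 was at 0.774% (the others 0.374% to 0.493%), the 8P sample of mouse 1800 at 0.415% (others 0.534% to 0.614%) and the 8ND sample of mouse 1856 at 0.76% (others 0.181% to 0.313%). By class of 2ND level, the 8ND sample of mouse 1856 stood apart at 0.185% where 2ND was exactly 0 and at 0.47% from above 0 to under 1%. The 0P sample of mouse 1839 stood apart at 4.18% between 1% and 5%, and the 8P sample of mouse 1800 at 5.07% between 5% and 10%. In the cluster on chromosome 4 the 8P sample of mouse 1848 was at 23.9% (others 0 to 8.78%).

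In 0ND of the second cohort, mouse 1820 stood apart at chr14:109311560 (20.4%) and chr5:114724636 (2.82%). Mouse 1839 did so at chr7:86660424 (7.92%), chr11:50416124 (1.89%) and chr18:64425266 (2.69%), and mouse 1809 at chr2:106533990 (4.88%). In 8ND of that cohort, mouse 1856 stood apart at chr11:50416124 (4.61%), chr18:64425266 (20.9%), chr17:51952316 (1.36%) and chr2:106533990 (17.4%), mouse 1800 at chr4:118782657 (1.97%) and mouse 1841 at chr15:78549732 (5.48%). Among polyps, 1 lesion of mouse 1856, labelled as the first although the file names of the 2 lesions are crossed, did so at chr18:64425266 (17.8%) and chr5:114724636 (16.2%), and that of mouse 1839 at chr17:51952316 (6.43%). In the first cohort, the 8ND sample of mouse 1830 was at 4.5% at chr15:98000966, with the other 8ND samples at 0. At chr15:83610530 1 0ND sample was at 2.79%, with the other 0ND samples at 0.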

How the results depend on the processing

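Sites were limited by depth, sample number and the 5-point criterion. Centring shifts every member by the difference of the means over all sites, which were lower in polyps. The causes of the other changes below were not tested. Over both diets at the adjusted p, 0 members were higher. This became 29 with each sample centred, 1 with incomplete coverage, 1 with the quasi-binomial model and 0 to 3 with 1 sample left out. At the unadjusted p it was 17, also 17 with mouse as a replicate block, 14 with the quasi-binomial model, 16 with raw percent, 3 with samples under 8% of reads on 100 sites, 21 without the 8ND sample of mouse 1856 and 15 without the 0P sample of mouse 1839. Members lower numbered 1 with samples under 8%, at the adjusted and at the unadjusted p, and 0 with any 1 sample left out. For the difference between diets, the unadjusted p gave 9, with the block 9, quasi-binomial 10, raw 8, under 8% 8, without mouse 1856 11 and without mouse 1839 9, and 0 at the adjusted p with any 1 sample left out. All unadjusted alternatives beyond the plain one were chosen after seeing the data.

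For 0P against 0ND, the 5 higher became 20 when centred, 1 over 10 points, 16 quasi-binomial, 1 under 8%, 3 for members under 5% in 2ND, 2 for members with 5 or more others, 0 at the adjusted p and 3 to 10 with 1 sample left out. The 2 lower became 0 at 50 reads, 4 with incomplete coverage, 1 over 10 points, 4 under 8%, 1 under 5%, 0 with 5 or more others, 0 adjusted, and 2 to 4 with 1 left out. For 8P against 8ND, the 19 higher became 9 at 50 reads, 3 over 10 points, 10 quasi-binomial, 9 under 8%, 9 under 5%, 3 with 5 or more others, 0 adjusted, and 12 to 26 with 1 left out. The 0 lower became 3 quasi-binomial, 1 under 8% and 0 to 1 with 1 left out. For 8P against 0P, 13 became 6 at 50 reads, 23 with incomplete coverage, 6 raw, 1 over 10 points, 6 under 5%, 6 with 5 or more others, 0 adjusted, and 8 to 17 with 1 left out. For 8ND against 0ND in the first cohort, 8 became 3 at 50 reads, 1 raw, 1 over 10 points, 0 under 5%, 1 with 5 or more others, 0 adjusted, and 5 to 10 with 1 left out. In the second, 2 became 0 at 50 reads, 1 raw, 1 centred, 0 over 10 points, 4 under 8%, 1 with 5 or more others, 0 adjusted, and 0 to 4 with 1 left out. Pairing by mouse as a block changed no count (0, 0 and 0 over both diets, 5 and 2 on 0 mg, 19 and 0 on 8 mg FA). The correlation within mice estimated for the block was -0.00468 over both diets, -0.00557 on 0 mg and 0.00208 on 8 mg FA. With values so near 0 the block could hardly move a count, and differences within mice were not tested per site. The setting under 8% left out no sample of the 8P against 0P or first-cohort comparisons.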
